A study of Homo sapiens with 14 samples.

Results

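SALL1, SALL2 and SALL3 were followed here across maps of the BAF chromatin remodelling complex and of SOX2 in human embryonic stem cells (hESCs) held in 2 pluripotent states. Each locus was the gene body in GENCODE release 44 (hg38) with 100 kb on each side, so these are 3 of 20033 protein-coding genes whose windows were drawn the same way. The members were picked by name, and their windows held 102 peaks of the 7 lists compared. All chromatin came from WIBR3, an established hESC line. Naïve cells, converted from primed ones and expanded as a mixed population, were kept in serum-free 5i/L/A medium with kinase inhibitors and LIF. Primed cells were kept in conventional serum-containing medium with FGF2, and both states grew on mouse embryonic fibroblast feeders. Chromatin immunoprecipitation with sequencing (ChIP-seq) used antibodies against BRG1 and BRM, the alternative ATPases of BAF, against BAF155, a scaffold subunit, and against SOX2. Each list comes from 1 library, or from a pair of SOX2 libraries with identical coordinates that were counted as 1, so no count below has a replicate error.

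The SALL proteins are zinc finger transcription factors related to the Drosophila spalt protein, and a short motif at their amino terminus recruits the NuRD complex, a histone deacetylase and nucleosome remodeller. SALL1 acts in kidney, limb and ear development, and its mutation causes Townes-Brocks syndrome. SALL2 is the most diverged of the 3 paralogues followed here and has alternative promoters, and SALL3 acts in nerve and craniofacial development. BAF slides and evicts nucleosomes at promoters and enhancers. SOX2 is a high mobility group factor of pluripotent and neural cells that binds DNA at CATTGT-like letters.

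The whole lists held 57884 naïve and 15611 primed BRG1 peaks, 62338 naïve and 58352 primed BAF155 peaks, 17413 naïve BRM peaks, and 1940 naïve and 9290 primed SOX2 peaks. The primed BRM list held 167 peaks, and 0 of them lay in any of the 3 windows. List length therefore differs between states by itself, and each count at a SALL gene is set beside the same count over all protein-coding windows. As a check on the state labels, the naïve markers KLF17, SUSD2 and TFAP2C had more naïve-only than primed-only regions in 3 of 3 windows. So did 70.1% of all protein-coding windows. The primed markers SFRP2, SOX11 and ZIC2 had the opposite in 3 of 3, as 20.6% of all windows did. At SOX11 this rested on 1 primed-only region against 0 naïve-only ones. The study had shown TFAP2C as a naïve example on these same samples, so TFAP2C is no independent check.

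At SALL1, BAF was called at the promoter in both states, and SOX2 was called in primed cells alone. The upstream flank carried mostly primed peaks, while the downstream flank carried naïve and primed peaks alike. SALL1 (ENSG00000103449.13) lies on the minus strand at chr16:51135982-51152334, with 0 other protein-coding genes in its window of 216 kb. Its window held 6 naïve BRG1, 4 naïve BAF155, 0 naïve BRM and 0 naïve SOX2 peaks. In primed cells it held 6 BRG1, 12 BAF155 and 3 SOX2 peaks. The SALL2 window held, in the same order, 12, 11, 3 and 0 naïve peaks and 4, 10 and 3 primed peaks. The SALL3 window held 9, 6, 0 and 0 naïve peaks and 4, 6 and 3 primed peaks. At least 1 peak was found in 96.2% of all protein-coding windows for naïve BRG1, 95.7% for naïve BAF155, 78.0% for naïve BRM, 18.3% for naïve SOX2, 80.8% for primed BRG1, 95.9% for primed BAF155 and 54.4% for primed SOX2. SALL1 was lowest of the 3 for both naïve BAF subunits and highest for both primed ones, whereas the primed SOX2 counts were equal.

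**Figure D1:**
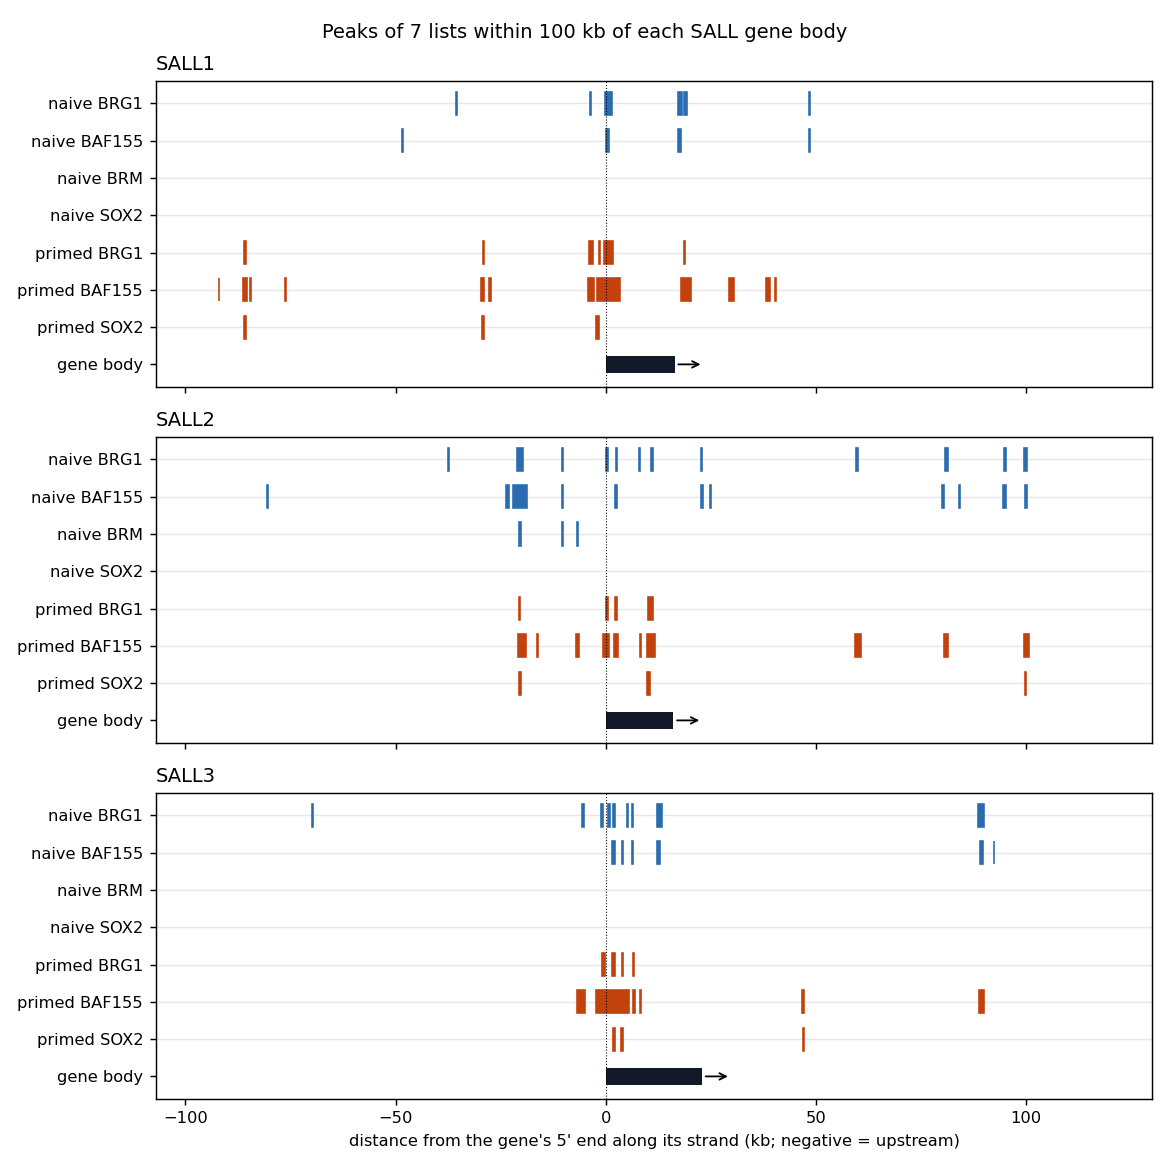
Peaks of each list (rows) by distance in kb from the gene's 5′ end along its strand, drawn to width, with the gene body as a black bar; blue marks naïve and orange primed lists. Upstream of SALL1, primed BAF155 and SOX2 peaks stand where there are few naïve peaks, while downstream both states have BAF peaks. The SALL2 window carries 12 naïve BRG1 and 11 naïve BAF155 peaks.

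More primed than naïve BAF155 peaks, as at SALL1 (12 against 4), were found in 31.0% of all protein-coding windows. A primed count of 3 times the naïve one or higher, with both above 0, was found in 4.37%. That factor is the one at SALL1 itself, so SALL1 stands at the edge of this set. At least as many primed BRG1 peaks as the 6 at SALL1 were found in 8.38% of windows, and at least 12 primed BAF155 peaks in 26.7%. Naïve BRG1 outnumbered primed BRG1 in 91.2% of windows, including SALL2 (12 against 4) and SALL3 (9 against 4), while SALL1 had 6 of each. The primed BRG1 list is the shorter, so limiting both to 15611 peaks by −log10 q cut the naïve list alone. Naïve against primed counts were then 0 against 6 at SALL1, 1 against 4 at SALL2 and 1 against 4 at SALL3. The share of all windows with more primed than naïve BRG1 under this cut was not computed. With the full lists, the medians over all windows were 9 naïve BRG1, 9 naïve BAF155, 2 primed BRG1 and 8 primed BAF155 peaks. SALL1 therefore stood below the median in both naïve lists and above it in both primed ones.

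**Figure D2:**
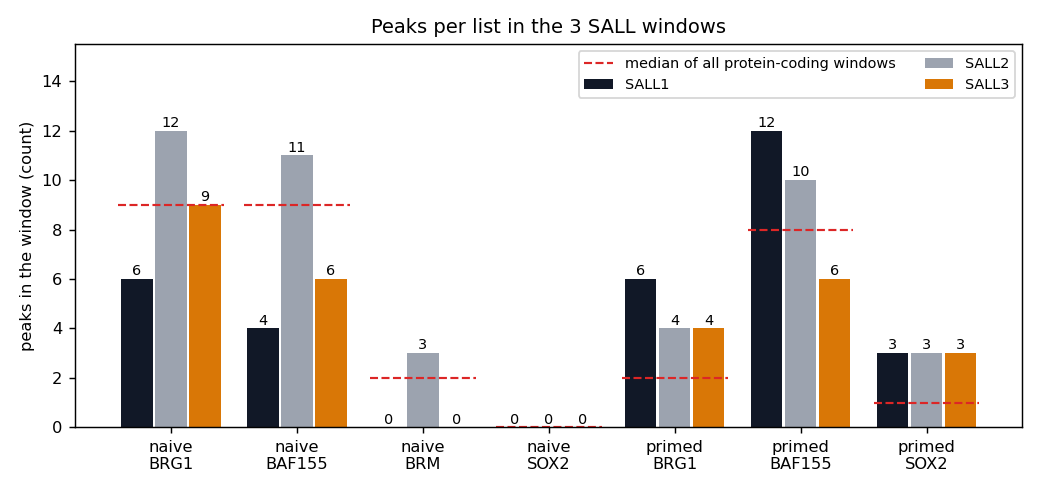
Number of peaks per list (vertical axis, counts) in the windows of SALL1, SALL2 and SALL3, with a dashed red line at the median over 20033 protein-coding windows. SALL1 has 4 naïve and 12 primed BAF155 peaks, against 11 and 10 at SALL2 and 6 and 6 at SALL3.

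The SALL1 promoter was the widest primed BAF site of its window. The naïve BRG1 peak there spanned 1.83 kb at a fold enrichment over input of 3.09, and the naïve BAF155 peak 0.765 kb at 2.78. In primed cells the BRG1 peak spanned 2.21 kb at a fold of 3.62 and the BAF155 peak 5.57 kb at 3.61. Read depth was not used here, and its part in peak widths was not tested. Of its own list, 0.263% of peaks were at least as wide as the primed BRG1 peak and 4.51% as the naïve one, and 0.158% were at least as wide as the primed BAF155 peak and 28.6% as the naïve one. A further 1.38 kb region at 3.54 kb upstream of the 5′ end and a 3.04 kb region near 18.8 kb downstream, just past the gene's 3′ end, were also shared by both states. These were the 3 common BAF regions of the window, where common means that at least 25% of either region was covered by the other state's.

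State-specific BAF regions at SALL1 were 3 naïve-only and 9 primed-only. The naïve-only regions lay 48.5 kb downstream and 35.5 and 48.3 kb upstream of the 5′ end, measured 0.175 to 0.32 kb and had folds of 2.86 to 3.67. Only the first of them held both BRG1 and BAF155 peaks. Of the primed-only regions, 3 lay downstream at 29.9 to 40.3 kb and 6 upstream, between 27.5 and 92.0 kb away. All 9 held BAF155 and 2 also held BRG1, and those 2 were the ones with a SOX2 peak, at 29.2 and 85.8 kb upstream. Their folds ranged from 2.7 to 5.14, and their widths from 0.164 to 0.977 kb. The upstream regions lie within introns of the long noncoding RNA gene ENSG00000285367, which starts inside SALL1 and runs away from it on the plus strand, except for the region at 92.0 kb, which is at the start of the pseudogene ENSG00000261047.

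The strongest primed sites of the SALL1 window coincided. At 85.8 kb upstream a SOX2 peak with a fold of 13.1, higher than 91.4% of the primed SOX2 list, overlapped the window's strongest primed BRG1 peak at 3.8 and its strongest primed BAF155 peak at 5.14. At 29.2 kb upstream the SOX2 fold was 11.9, over BRG1 at 3.76 and BAF155 at 4.34. Close to the promoter, 1.94 kb upstream, the SOX2 fold was 6.83, and this site overlapped the wide primed BAF155 peak but no BRG1 peak. That BAF155 peak belongs to the common promoter region, whose naïve peaks do not reach the site. A primed BRG1 peak of 0.16 kb was called beside the site, at 1.51 kb upstream. Naïve BRG1, BAF155, BRM and SOX2 peaks were called at 0 of these 3 sites. In naïve cells the nearest SOX2 peak was 2680 kb from the SALL1 5′ end and the nearest BRM peak 907 kb.

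The sequences of the 3 SALL1 sites are given because SOX2 and BAF155 coincide there in primed cells. Each runs 5′ to 3′ on the plus strand of hg38 for 200 bases about the SOX2 summit, and capitals mark the SOX letters CATTGT or CTTTGT, read on either strand.
SALL1, 1.94 kb upstream, chr16:51154262-51154461: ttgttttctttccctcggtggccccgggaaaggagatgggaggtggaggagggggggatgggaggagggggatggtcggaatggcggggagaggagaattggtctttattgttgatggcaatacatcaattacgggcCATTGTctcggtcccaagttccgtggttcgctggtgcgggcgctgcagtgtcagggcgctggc
SALL1, 29.2 kb upstream, chr16:51181399-51181598: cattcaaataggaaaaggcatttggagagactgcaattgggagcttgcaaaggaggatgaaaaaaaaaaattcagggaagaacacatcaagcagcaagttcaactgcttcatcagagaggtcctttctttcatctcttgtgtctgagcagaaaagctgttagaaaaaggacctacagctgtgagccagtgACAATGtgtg
SALL1, 85.8 kb upstream, chr16:51238063-51238262: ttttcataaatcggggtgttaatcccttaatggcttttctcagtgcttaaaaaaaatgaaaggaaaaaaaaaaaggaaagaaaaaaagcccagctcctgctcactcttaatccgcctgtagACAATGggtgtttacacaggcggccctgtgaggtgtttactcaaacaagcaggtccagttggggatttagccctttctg

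SOX letters lay within 40, 93 and 24 bases of the 3 SALL1 summits, and the GC content of the windows was 59.5% at the proximal site against 42% at each distal one. Across all 3 loci, 8 of 9 summit windows held SOX letters (88.9%, exact 95% interval 51.8 to 99.7), against 60.6% over the primed SOX2 list. With windows at the peak midpoints the count was 4 of 9 (44.4%, 13.7 to 78.8), against 59.5% over the list. The list's own share lies inside both intervals, and the summit windows were added after the midpoint values had been seen. Among the 9 primed-only BAF regions of SALL1, 6 held SOX letters in the 200 bases about their midpoint (66.7%, 29.9 to 92.5), compared with 34.9% of all primed-only regions. The 3 naïve-only regions held none, which allows a share of up to 70.8%, and 22.3% of all naïve-only regions held them. POU (ATGCAAAT or ATGCTAAT), ZIC (CAGCAGG) and KLF (GGGTGTGG or GGGCGTGG) letters were found in 0 of 9 summit windows, which allows a share of up to 33.6%, and in 12.8%, 13.9% and 1.63% of the summit windows of the whole list. These shares describe letters in a window and not bound sites.

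The SALL2 window carried the most naïve BAF of the 3, much of it common with primed cells. SALL2 (ENSG00000165821.12) lies on the minus strand at chr14:21521080-21537216. Its window held starts of 6 other protein-coding genes: CHD8, a chromatin remodeller of the CHD family, RAB2B, a small GTPase, TOX4, a high mobility group protein, METTL3, the catalytic subunit of the mRNA m6A methyltransferase, and the olfactory receptors OR10G3 and OR10G2. BAF regions numbered 9 naïve-only, 2 primed-only and 8 common. Of the 8 common regions 4 lay in the SALL2 gene body, and 5 of 8 were promoters. In contrast, 0 of the 9 naïve-only regions lay in the SALL2 gene body. Of those 9, 4 were intergenic and the others lay at CHD8, METTL3 or OR10G3. METTL3 had a naïve-only BAF155 peak at its promoter, 0.161 kb wide with a fold of 2.52 and a −log10 q of 1.58. CHD8, RAB2B and TOX4 had common regions at theirs, and CHD8 also had a naïve-only BAF155 region there with a fold of 2.3. OR10G3 and OR10G2 had 0 peaks of any list within 1 kb of their starts.

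Both SALL2 promoters carried BAF peaks in both states. At the upstream one, naïve BRG1 had a fold of 2.81, primed BRG1 3.48 and primed BAF155 3.8. At the internal one, near the start site of the canonical transcript 10.9 kb downstream, naïve BRG1 had a fold of 3.13, primed BRG1 3.35 and primed BAF155 4.11. Naïve BAF155 was called at neither, its closest peak being the intronic one at 2.52 kb with a fold of 3.61, the strongest naïve BAF155 peak of the window. The primed SOX2 peak with a fold of 5.28 stood next to the internal promoter, 10.2 kb downstream of the 5′ end. It overlapped primed BRG1 and BAF155 peaks but not the naïve BRG1 peak beside it.

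The site 20.4 kb upstream of SALL2 was the one place in the 3 windows where BRM and SOX2 peaks overlapped across states. It held naïve BRG1 at 3.29, naïve BAF155 at 3.33, naïve BRM at 3.04, primed BRG1 at 3.51, primed BAF155 at 4.16 and primed SOX2 at 6.26. The naïve BAF155 peak there was 3.31 kb wide and ranked 305 of 62338 by width. All 3 BRM peaks of the SALL loci lay upstream of SALL2, at 6.71, 10.3 and 20.4 kb, with folds of 3.22, 3.53 and 3.04. The one at 10.3 kb lay in a naïve-only BAF region with BRG1 at 3.05 and BAF155 at 3.37. The one at 6.71 kb overlapped no naïve BRG1 or BAF155 peak and lay within a primed-only BAF region with a BAF155 fold of 2.99. The third primed SOX2 peak of the window, at 99.9 kb downstream with a fold of 7.35, lay at a CHD8 promoter.

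Windows without a naïve BRM peak, such as those of SALL1 and SALL3, made up 22.0% of all protein-coding windows. Among the 13293 windows with at least 4 naïve BAF155 and 6 naïve BRG1 peaks, the numbers at SALL1, they made up 4.94%. That set has no upper limit and SALL1 stands at its lower bound, so 4.94% is not a share of windows with matched BAF counts. At SALL3 the nearest naïve BRM peak was 266 kb from the 5′ end. A peak that was not called lay below the authors' threshold, and the absence of BRM cannot be read from it.

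SALL3 had 4 of its 9 BAF regions in the gene body, among them the widest region of the 3 windows. SALL3 (ENSG00000256463.10) lies on the plus strand at chr18:78979818-79002677, with the start of ATP9B, a phospholipid flippase, in its window. A single primed BAF155 peak of 7.9 kb, with a fold of 3.98, spanned the promoter and first part of the gene and ranked 20 of 58352 by width. Inside it, naïve cells had 4 separate BRG1 peaks of 0.254 to 0.605 kb and 2 BAF155 peaks of 0.66 and 0.164 kb, and primed BRG1 had 3 peaks. BAF regions numbered 3 naïve-only, 2 primed-only and 4 common. The naïve-only region at 12.8 kb, near an internal start site, held BRG1 at 2.95 and BAF155 at 2.92. The other naïve-only regions, at 69.8 kb upstream and 92.3 kb downstream, held 1 peak each. The primed-only regions were a 0.164 kb BAF155 peak at 8.19 kb and a SOX2-bearing region at 46.9 kb.

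Of the 3 primed SOX2 peaks at SALL3, 2 lay inside the wide BAF155 domain. The peak at 2.02 kb had a fold of 12.4, higher than 89.8% of its list, and overlapped BRG1 and BAF155 peaks of both states. The peak at 3.86 kb had a fold of 8.19 and overlapped the window's strongest primed BRG1 peak, at 4.12. The peak at 46.9 kb had a fold of 5.18 and overlapped primed BAF155 at 3.9 alone. The sequences of the strongest SALL3 site and of the site at the internal SALL2 promoter are given for comparison with those of SALL1, in the same layout.
SALL3, 2.02 kb downstream, chr18:78981637-78981836: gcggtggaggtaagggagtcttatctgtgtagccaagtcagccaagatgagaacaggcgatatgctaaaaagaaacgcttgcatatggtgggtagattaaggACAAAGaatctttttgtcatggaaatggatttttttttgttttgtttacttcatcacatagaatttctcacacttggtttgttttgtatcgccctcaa
SALL2, 10.2 kb downstream, chr14:21527132-21527331: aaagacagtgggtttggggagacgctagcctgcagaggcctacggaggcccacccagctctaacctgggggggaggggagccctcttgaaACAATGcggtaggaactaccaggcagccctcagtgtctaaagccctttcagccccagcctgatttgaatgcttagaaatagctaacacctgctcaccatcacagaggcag

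In both, the SOX letters lay within 7 bases of the summit. GC content was 39.0% at the SALL3 site and 56.5% at the SALL2 site.

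The promoters of SALL2 and SALL3 differed in base composition while both held primed BRG1 and BAF155 peaks. RefSeq promoter sequences (GRCh38.p14, 250 bases before to 50 after the start) matched 2 of the 3 genes, SALL2 and SALL3. They are printed on the gene's strand, and capitals mark SOX letters and the TFAP2 letters GCCNNNGGC.
SALL2 promoter, chr14:21537072-21537371: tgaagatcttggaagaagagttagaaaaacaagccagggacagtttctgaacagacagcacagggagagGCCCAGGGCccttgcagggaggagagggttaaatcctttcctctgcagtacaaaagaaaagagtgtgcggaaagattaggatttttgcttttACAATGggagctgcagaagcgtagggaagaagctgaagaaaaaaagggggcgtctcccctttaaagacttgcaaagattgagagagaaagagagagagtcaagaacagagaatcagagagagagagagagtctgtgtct
SALL3 promoter, chr18:78979568-78979867: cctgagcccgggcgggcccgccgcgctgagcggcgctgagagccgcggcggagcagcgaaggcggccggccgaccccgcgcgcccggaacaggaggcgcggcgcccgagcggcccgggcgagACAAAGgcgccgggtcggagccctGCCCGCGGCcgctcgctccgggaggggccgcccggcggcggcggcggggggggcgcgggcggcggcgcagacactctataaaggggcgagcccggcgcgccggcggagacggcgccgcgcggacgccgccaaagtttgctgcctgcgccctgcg

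The SALL2 promoter had a GC content of 46.0% with 3 CpG, and the SALL3 promoter 83.0% with 59 CpG, beside medians of 58.7% and 14 over 35116 promoters. Each held SOX letters once and TFAP2 letters once, as 24.5% and 23.2% of all promoters did at least once. The SALL2 sequence overlapped a naïve BRG1 peak and the SALL3 sequence overlapped none of the 4 naïve lists.

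All 9 primed SOX2 peaks of the SALL loci lay in a primed BAF region (100%, exact 95% interval 66.4 to 100), beside 88.4% of the whole primed SOX2 list. All 9 overlapped primed BAF155 and 6 overlapped primed BRG1. In naïve BAF regions lay 0 of 3 of the SALL1 sites, 2 of 3 of the SALL2 sites and 2 of 3 of the SALL3 sites, beside 41.6% of the list. With 3 sites a locus the exact 95% intervals overlap in part, the SALL1 interval reaching 70.8% and the others starting at 9.43%. Primed SOX2 peaks without a naïve one, seen at 3 of 3 loci, were found in 40.3% of all protein-coding windows, and at least 3 primed with 0 naïve peaks in 6.08%. The primed SOX2 list was also limited to its 1940 peaks of highest −log10 q, the length of the naïve list. This left 2 peaks at SALL1, 0 at SALL2 and 1 at SALL3. The shares of all windows under this limit were not computed. The nearest naïve SOX2 peaks were 228 kb from SALL2 and 979 kb from SALL3.

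**Figure D3:**
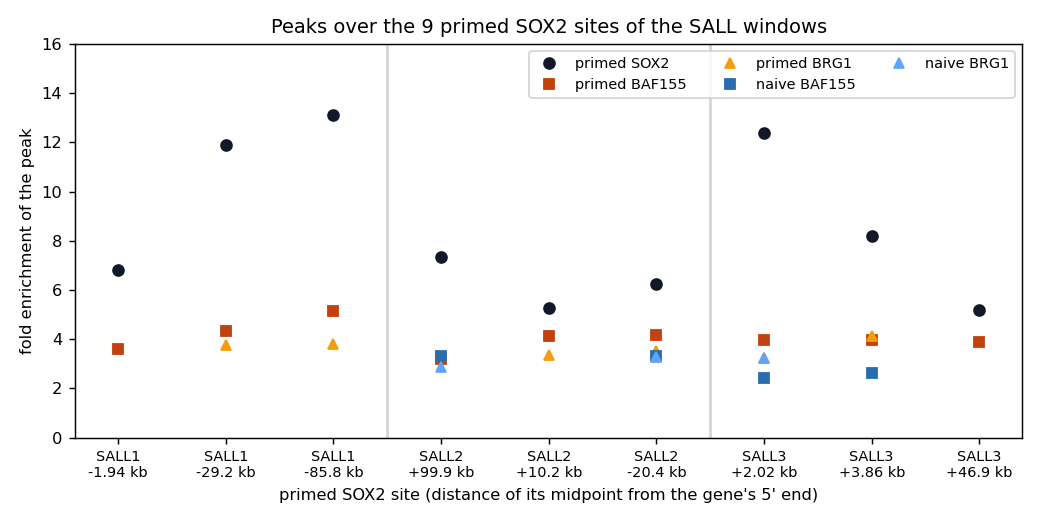
Fold enrichment over input of each peak (vertical axis) at the 9 primed SOX2 sites, ordered by locus and named by distance from the gene's 5′ end. The 3 SALL1 sites carry primed peaks alone, whereas 4 of the 6 sites of SALL2 and SALL3 also carry naïve BAF155 peaks.

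The contrast of SALL1 with SALL2 and SALL3, the paralogues followed here, rests on the state-specific BAF regions. The study had singled out SALL1 as a primed example on these same samples, so its direction is not independent evidence. At SALL1 9 of 12 state-specific regions were primed-only (75.0%, exact 95% interval 42.8 to 94.5). The share was 2 of 11 at SALL2 (18.2%, 2.28 to 51.8), 2 of 5 at SALL3 (40.0%, 5.27 to 85.3) and 38.6% over the whole series. Most of these state-specific SALL regions held a peak of 1 subunit only. Both BRG1 and BAF155 peaks were held by 2 of 9 primed-only and 1 of 3 naïve-only regions at SALL1. The counts were 0 of 2 and 3 of 9 at SALL2, and 0 of 2 and 1 of 3 at SALL3. More primed-only than naïve-only regions were found in 20.6% of all protein-coding windows, and at least 9 primed-only with at most 3 naïve-only regions in 1.08%. Both limits are the counts of SALL1 itself, so SALL1 stands at the edge of that last set. The difference of primed-only minus naïve-only regions was 6 at SALL1, -7 at SALL2 and -1 at SALL3, with a median of -3 over all windows, and 2.95% of windows had a difference as large as that of SALL1.

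**Figure D4:**
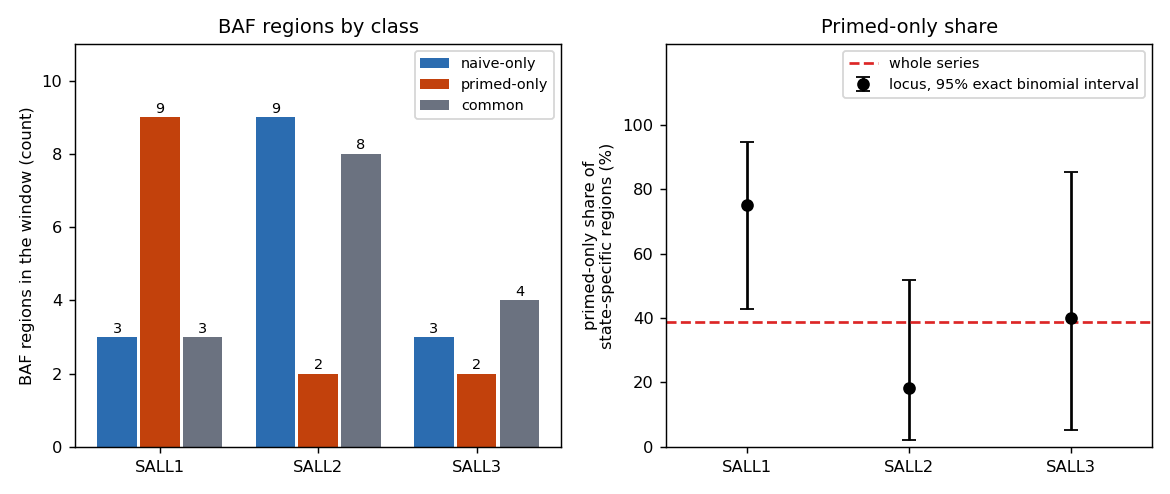
Left, count of BAF regions per window by class (naïve-only, primed-only or common); right, primed-only share of the state-specific regions in percent with exact 95% binomial intervals, and the whole-series share of 38.6% as a dashed line. The 3 intervals overlap, and the SALL1 interval alone lies wholly above the dashed line.

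By odds ratio, primed-only regions were 13.5 times as frequent against naïve-only ones at SALL1 as at SALL2 (Woolf 95% interval 1.8 to 101, two-sided Fisher's exact p = 0.0123, 0.04 adjusted over the 4 pairs compared). Against SALL3 the ratio was 4.5 (0.491 to 41.2, exact p = 0.28, adjusted 0.373), and against both paralogues together it was 9.0 (1.6 to 50.7, exact p = 0.02, adjusted 0.04). SALL2 against SALL3 gave 0.333 (0.0316 to 3.51, exact p = 0.547, adjusted 0.547). These p-values treat regions of 1 locus in 1 library as independent, and they compare loci within these libraries and not conditions. They also take no account of the study's choice of SALL1 as a primed example on these samples. The SALL2 window held 6 other protein-coding starts, the SALL3 window 1 and the SALL1 window 0, and gene content was not matched. The call was not stable: of 11 other settings that gave a ratio, the adjusted p passed 0.05 in 1 for SALL1 against SALL2 (range 0.0193 to 1.0) and in 0 for SALL1 against both (0.06 to 1.0), with the ratio above 1 in all 11 for both pairs.

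The naïve-only regions had folds of 2.3 to 3.37 at SALL2 and 2.64 to 3.28 at SALL3, below the fold of 4 used as a stricter limit. When each list was limited to peaks with a fold of at least 4, 3 of 3 state-specific regions at SALL1, 2 of 2 at SALL2 and 3 of 3 at SALL3 were primed-only, beside 77.8% over the series. With a −log10 q of at least 3 the counts were 9 of 10, 3 of 5 and 3 of 3, beside 55.8%. With equal list lengths they were 11 of 14, 7 of 13 and 4 of 7, beside 49.9%. The share was above that of the series at SALL1 under each of these, and at SALL2 and SALL3 as well. With BRG1 peaks alone it was 3 of 6 at SALL1, 0 of 8 at SALL2 and 2 of 9 at SALL3, beside 9.94%. The fold and −log10 q limits removed primed as well as naïve peaks, while equal list lengths cut the naïve BRG1 and BAF155 lists alone. What moved the shares was not tested.

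The length of sequence covered by BAF peaks put SALL1 first, SALL3 next and SALL2 last, the order of the primed-only shares. Covered length went from 4.23 kb in naïve to 14.2 kb in primed cells at SALL1, a ratio of 3.36, from 5.79 to 11.9 kb at SALL3, a ratio of 2.06, and from 10.7 to 10.5 kb at SALL2, a ratio of 0.979. Over 19478 windows with a naïve BAF region the median ratio was 0.708, and a ratio as high was found in 2.73% of windows for SALL1, 7.81% for SALL3 and 31.3% for SALL2. SALL3 thus had equal BAF155 counts in both states, and most of its primed length lay in the single BAF155 peak of 7.9 kb. Its other primed BAF155 peaks measured 0.164 to 1.79 kb, and its naïve ones 0.164 to 0.864 kb. A ratio of at least 3 was found in 3.52% of windows.

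**Figure D5:**
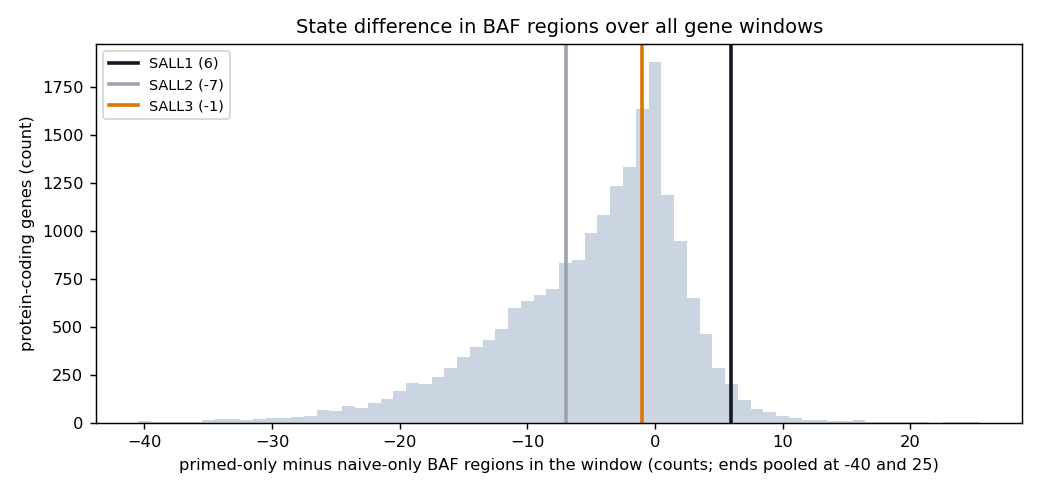
Number of protein-coding genes (vertical axis) by primed-only minus naïve-only BAF regions in their window (horizontal axis, counts). The lines mark SALL1 at 6, SALL2 at -7 and SALL3 at -1.

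KLF letters were seen in 4 of the 9 naïve-only regions of SALL2 (44.4%, 13.7 to 78.8), against 10.9% of all naïve-only regions. They were found in 0 of 3 naïve-only regions at SALL1 and 0 of 3 at SALL3. SOX letters were in 4 of the same 9 SALL2 regions, against 22.3% overall. TFAP2 letters were in 0 of those 9, against 10.7% overall. POU and ZIC letters were each in 1 of those 9, against 3.79% and 7.12%. KLF factors are zinc finger regulators that include markers of the naïve state, and no map of a KLF factor was analysed here.

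Most genes of NuRD, the complex that SALL proteins recruit, had the opposite balance to SALL1, as most protein-coding windows did. Of 12 genes for NuRD subunits, 11 had more naïve-only than primed-only regions in their window and 1, HDAC2, a histone deacetylase, had more primed-only (3 against 2), with a median difference of -11.5, beside -3 over all windows. Across all protein-coding windows 70.1% had more naïve-only regions. At CHD4, the remodelling ATPase of NuRD, 13 regions were naïve-only and 2 primed-only. GATAD2A, a linker subunit, had the widest gap of the 12, with 35 and 4. The counts were closer at HDAC1 (4 and 3) and RBBP7 (6 and 3). Gene density and window length were not matched.

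The windows most like that of SALL1 were found by the smallest sum of rank differences over the 7 lists. They were those of PRKAA2, a catalytic subunit of AMP-activated kinase, TBPL1, a relative of the TATA-binding protein, ENSG00000288529, which overlaps the same region of chromosome 6, CDH18, a cadherin, and ZNF280C, a zinc finger protein. PRKAA2 had 4 naïve BRG1, 4 naïve BAF155, 0 naïve BRM, 0 naïve SOX2, 6 primed BRG1, 13 primed BAF155 and 3 primed SOX2 peaks. Of its state-specific regions 0 were naïve-only and 10 primed-only. By the same measure 1.44% of windows were nearer to SALL1 than SALL3 was and 8.85% were nearer than SALL2. The nearest windows to SALL2 included METTL3, RAB2B and TOX4, whose windows share sequence with it.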

How the data were processed

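ChIP-seq peaks were analysed for 10 samples of 14; the other 4 are inputs. Per the methods, the authors mapped reads to hg38 with Bowtie2 (2.3.4), removed duplicates and called peaks with MACS2 against input, narrow for SOX2 and broad for BAF subunits; depth was not used here. The deposited lists give positions with a score, a fold enrichment over input (a linear ratio), and −log10 p and q per peak, as the authors' peak caller wrote them. Positions alone were given for primed BRM and for the second SOX2 library of each state.

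Peaks of chromosomes 1 to 22, X and Y that touched a window were counted. BRG1 and BAF155 peaks of a state were merged into BAF regions, and regions were shared where at least 25% of either was covered. Promoters were midpoints within 1 kb of a GENCODE release 44 start site. Intervals are exact (Clopper-Pearson, 95%) or Woolf's and cover counting error only. Fisher's exact tests (scipy 1.17.1) were two-sided with Benjamini-Hochberg adjustment over 4 pairs. Interval rules were tested on simulated data. Alternatives varied the flank, thresholds, overlap rule, subunits and list length. SOX2, BRM, strongest, gene-body and SALL1 state-specific peaks are named. The genes, lists and tests were chosen with earlier results of these data known.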

Additional observations from a re-analysis of the deposited data

How the results depend on the processing

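Each group has 1 library, so no replicate spread could be set against these counts. The primed lists differ in length from the naïve ones. Read depth was not set against the counts either, although the study lists reads for its BRG1, BAF155 and naïve BRM libraries. No paired analysis was possible because both SOX2 lists of a state hold the same coordinates. For the same reason leaving out either SOX2 library could not change a count (3, 3 and 3) or the share in primed BAF (100%). That share was 66.7% (6 of 9) with 25% of both regions. Naïve SOX2 stayed at 0 in the 3 windows, and naïve BRM at 0 at SALL1 and SALL3, under every setting run for peak counts. These zeros could not have changed. The nearest such peaks lay outside the windows of 200 kb on each side, and the other settings add no peaks. Of the 132 counts per list not taken as main results, 33 moved by over 1.5 times. Causes of the changes below were not tested, except that narrower windows and stricter thresholds leave fewer regions.

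The log2 odds ratio of SALL1 against SALL2 (3.75 as reported) and against both paralogues (3.17) stayed positive but lost its call as follows: 2.06 and 1.32 with 60 kb on each side, 2.07 and 1.95 with 20 kb, 2.58 and 1.58 with −log10 q limited to 3 or more, 1.65 and 1.58 with equal list lengths, 3.39 and 2.91 without neighbouring promoters, 2.61 and 2.32 with 25% of both regions, 2.04 and 1.92 with 50% of both, 3.58 and 3.04 with a 1 bp overlap, 4.09 and 2.91 with BRG1 alone, and 2.07 and 1.87 with BAF155 alone. With 200 kb only the pooled call was lost (2.74). Against SALL3 (2.17) the sign turned with 60 kb (-0.26) and with the q limit (-0.14). A fold of at least 4 gave no ratio, since no naïve-only region was left.

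The primed-only share moved to 100% at SALL1 with 20 kb (1 region) and to 100% at the 3 loci with a fold of at least 4. A −log10 q of at least 3 gave 60% at SALL2 and 100% at SALL3, equal list lengths gave 53.8% at SALL2, and BRG1 alone gave 0.0% at SALL2. Within the intervals of the reported shares, SALL1 fell to 50% (3 of 6) with BRG1 alone, SALL2 stood at 40% with 20 kb, and SALL3 at 66.7% with 60 kb, 55.6% with 200 kb and 22.2% with BRG1 alone. The primed percent of BAF155 peaks (75.0, 47.6 and 50.0 as reported) moved to 100 at SALL3 with the q limit and to 100 at the 3 loci with the fold limit. Primed SOX2 counts moved to 1 at SALL1 and 1 at SALL2 with 20 kb, and to 0 at SALL2 and 1 at SALL3 with equal list lengths. SOX letters moved to 88.9% with windows at the summit, a setting added after seeing the data.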
